A study of Mus musculus with 9 samples.

Results

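The 9 genes described here make heme, break it down, or carry electrons to the cytochrome P450 enzymes that use heme: Alas1, Alad, Urod, Cpox, Ppox, Fech, Hmox1, Por and Cyb5a. They were chosen by name, with earlier results of these data known, from a liver expression table with 52151 rows and 26296 gene names. Each of the 9 had 1 row built on known transcripts, and 7 further rows, named Alas1, Cyb5a or Por, held only transcripts assembled from the reads. The level of a gene is given in FPKM, a count of sequenced fragments scaled to transcript length and library size.

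The libraries came from mouse liver, 3 per group, from mice that were male by the methods and 8 weeks of age by the labels. Pair-fed (PF) mice received an isocaloric control liquid diet, and alcohol-fed (AF) mice the Lieber-DeCarli diet, in which alcohol replaces part of the calories, both for 5 weeks. By the methods, which describe PF and AF, mice were killed after a fast. The group called AF with MNA here received the alcohol diet and a daily intraperitoneal injection of MNA at 50 mg/kg. The labels do not spell out MNA, and give no sham injection for PF or AF, so the compound and the injection cannot be told apart. The strain field reads C57BL/6 for PF and AF, and C57BL/7, C57BL/8 and C57BL/9 for the 3 AF with MNA libraries. Nothing in the sources used here ties the libraries to single animals, so p-values measure the spread between these libraries. Hepatocyte markers (Alb, Apoa1, Ttr, Serpina1a, Tat, Cps1) summed to between 14890 and 21839 FPKM in every library.

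Heme is an iron-carrying ring made in a chain of steps that begins and ends in mitochondria. ALAS1 makes the first precursor and sets the pace of the chain in liver, ALAD, UROD, CPOX and PPOX work in between, and ferrochelatase (Fech) inserts the iron. Much of the heme made in liver goes to cytochrome P450 enzymes, which sit in the endoplasmic reticulum and receive electrons from P450 oxidoreductase (Por) and, for some reactions, from cytochrome b5 (Cyb5a). Heme oxygenase 1 (Hmox1) opens the ring to biliverdin, carbon monoxide and iron, and is induced by heme and by oxidative stress.

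In PF liver the order of the levels ran from Cyb5a at 191 FPKM through Por at 91.0, Alas1 at 64.4, Cpox at 25.5, Urod at 13.9, Alad at 10.7, Fech at 8.07 and Hmox1 at 5.93 to Ppox at 3.09 FPKM (means, n = 3). Neighbours in this order were apart in every library, except Por and Alas1, and Urod and Alad, whose libraries overlapped. Among the 6 synthesis genes the order Alas1, Cpox, Urod, Alad, Fech, Ppox was the same in all 3 groups, and Alad and Fech overlapped in AF and in AF with MNA. By group means, Hmox1 was the gene that changed place, to rank 3 in AF and to rank 5 in AF with MNA. Its rank in AF rested on replicate 2, at 159.9 FPKM, beside 15.8 and 10.5 FPKM in replicates 1 and 3.

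Against PF, Por and Hmox1 were higher and Alad was lower in all 3 AF libraries and in all 3 AF with MNA libraries, without overlap. No member passed an adjusted p of 0.05 (limma on log2(FPKM + 1), Benjamini-Hochberg over all tested genes) in any of the 3 comparisons, so none of these differences stood out from the spread once all genes were counted. The other synthesis genes overlapped between PF and each alcohol-fed group. The plot of levels by library shows the 9 genes side by side.

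**Figure D1:**
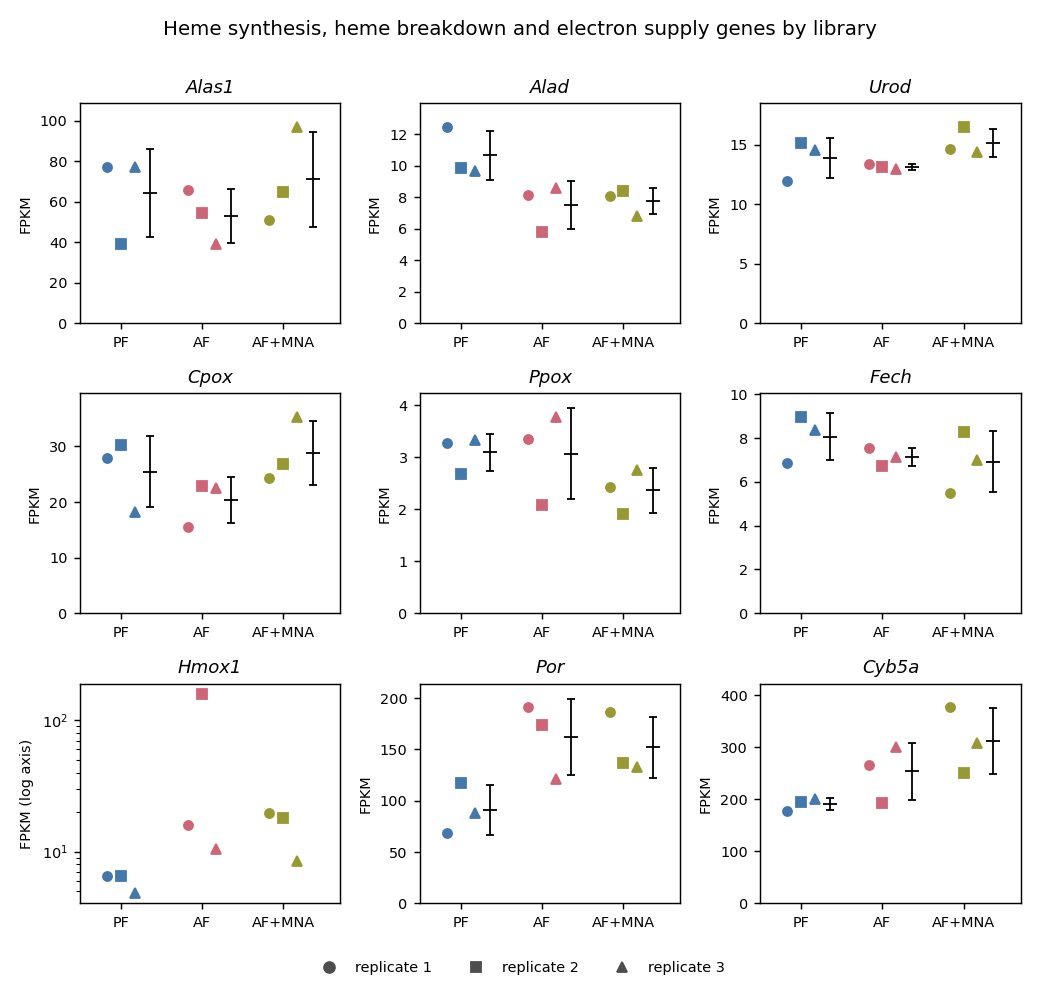
Level in FPKM of the 9 genes in each library (points, shape by replicate number) of PF, AF and AF with MNA, with the group mean and SD as black bars (n = 3 each); Hmox1 is on a log axis without bars. Por and Hmox1 lie above the PF libraries in all 6 alcohol-fed libraries and Alad lies below them, and the Hmox1 level of AF replicate 2 reaches 159.9 FPKM.

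In AF against PF, 0 of the 9 members passed the adjusted p, beside 40 of 12268 tested genes (0.326%). At an unadjusted p under 0.05 with a log2 fold change (FC) beyond 1, the threshold in the methods of the study, 0 of 9 members passed, beside 527 genes (4.30%). The methods state this threshold for lncRNAs analysed with Ballgown, and it was used here with the limma p of genes. An unadjusted p under 0.05 alone was met by 2 of 9, Por and Alad, beside 11.7% of all genes. Without overlap of libraries, 2 of 9 members were higher, where 8.18% of all genes were, and 1 of 9 was lower, where 10.1% were. The median log2 FC was -0.08 over the members and -0.03 over all genes, with 3 members above 0 and 6 below.

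For AF with MNA against PF, 0 of 9 members passed the adjusted p, beside 53 of 12276 genes (0.432%), and 1 of 9, Hmox1, passed the methods' threshold, beside 477 genes (3.89%). Hmox1, Por, Cyb5a and Alad had an unadjusted p under 0.05, that is 4 of 9 members beside 14.5% of all genes. The libraries did not overlap for 3 higher members (Hmox1, Por and Cyb5a), where 9.54% of all genes were higher, and for 1 lower member (Alad), where 11.9% were lower. Both comparisons use the same 3 PF libraries and are not independent.

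For AF with MNA against AF, 0 of 9 members passed either rule, beside 6 of 12214 genes with an adjusted p under 0.05 (0.0491%) and 242 past the methods' threshold (1.98%). No member had an unadjusted p under 0.05, a level met by 5.22% of all genes. Urod and Cpox were higher in every AF with MNA library than in any AF library, which held for 5.53% of all genes, and no member was lower without overlap, which held for 4.58%.

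When the 6 alcohol-fed libraries were set together against PF, a comparison added after the data had been seen, 0 of 9 members passed the adjusted p, beside 130 genes (1.06%). All 6 libraries lay above all 3 PF libraries for 2 members, Por and Hmox1, and for 3.64% of all genes. All 6 lay below for Alad alone among the members, and for 5.34% of all genes.

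**Figure D2:**
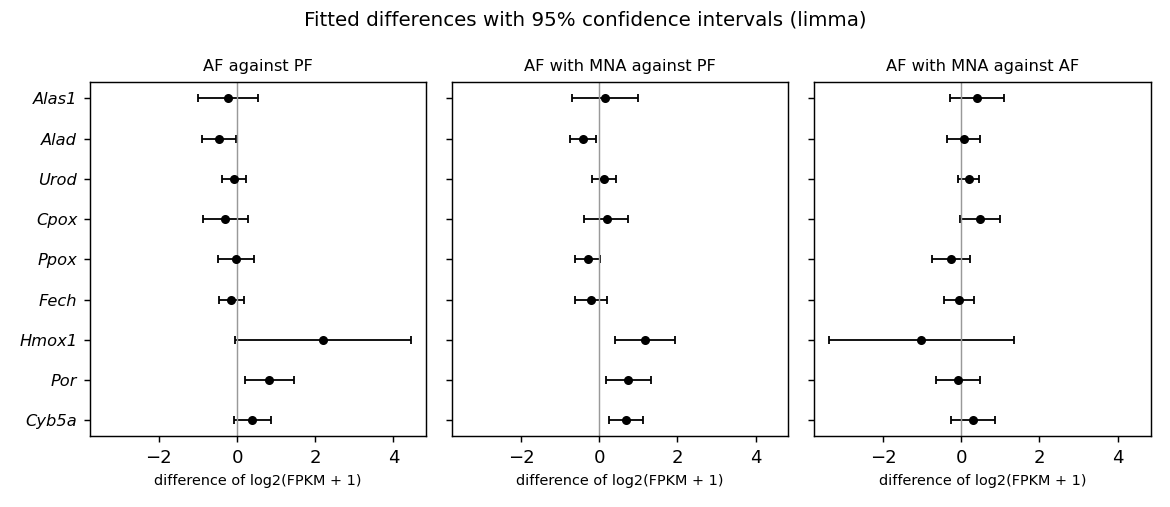
Fitted difference of log2(FPKM + 1) for each gene in the 3 comparisons (x axis, points), with the 95% confidence interval as bars (limma, n = 3 per group). The intervals of Por and Alad exclude 0 in both comparisons with PF, those of Hmox1 and Cyb5a in AF with MNA against PF, and none does in AF with MNA against AF.

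Por encodes the flavoprotein that passes electrons from NADPH to all P450 enzymes of the endoplasmic reticulum, and also to heme oxygenase and squalene epoxidase. Its gene lies at chr5:135670033-135735326 on the plus strand (GRCm38, GENCODE M21). Its level was 68.1, 117 and 87.8 FPKM in PF replicates 1 to 3, 191, 174 and 121 FPKM in AF, and 186, 136 and 133 FPKM in AF with MNA. The lowest alcohol-fed library, AF replicate 3, stood just above the highest PF library, replicate 2. The log2 FC was 0.83 in AF against PF (1.78-fold; fitted difference 0.83 ± 0.26 SE, limma adjusted p = 0.325) and 0.74 in AF with MNA against PF (1.67-fold, adjusted p = 0.273). Without PF replicate 2 the AF value came to 1.05 and passed the methods' threshold, and without PF replicate 1 it was 0.66. AF with MNA and AF differed by -0.09, and the interval of the fitted difference, -0.64 to 0.48, left room for a difference in either direction.

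The 141 bases that precede the annotated exon in the RefSeq promoter window of Por, which lies inside the gene because other transcripts start upstream (GRCm38.p6, plus strand, chr5:135688895-135689035) are shown because Por was the one electron supply gene among the 9 that lay apart from PF in both alcohol-fed groups. Capitals mark the GC box GGGCGG or its reverse complement, the only searched motif found there.
Por: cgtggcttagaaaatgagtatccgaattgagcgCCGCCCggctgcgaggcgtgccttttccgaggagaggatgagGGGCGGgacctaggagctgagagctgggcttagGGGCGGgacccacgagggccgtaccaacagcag

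The motifs searched, on both strands of the 250 bases before each start, were the GC box, the E-box CACGTG, the core GCATGC of the palindrome that the factor NRF1 binds, the GATA forms TGATAA and AGATAA, the antioxidant response element TGACNNNGC and the nuclear receptor half-site AGGTCA. Among 32851 RefSeq promoter windows of that length, the GC box was in 32.7%, the NRF1 core in 6.70%, the E-box in 6.02%, the GATA forms in 7.94% and 9.99%, the antioxidant response element in 10.2% and the half-site in 14.0%. A match is a match of letters and does not show binding. The table held windows for 6 of the 9 members, and Hmox1, Fech and Cyb5a were not among them.

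The marker sum of sinusoidal endothelial cells was also apart from PF in the same libraries. The 5 markers (Stab2, Clec4g, Lyve1, Kdr, Pecam1) summed to 19.7 to 24.3 FPKM in PF, 24.9 to 36.2 FPKM in AF and 30.4 to 33.8 FPKM in AF with MNA, and their part in the Por level was not tested. Singly, only Pecam1 was apart from PF in AF, where Clec4g in replicate 3, at 5.07 FPKM, was below every PF library. In AF with MNA, Clec4g, Kdr and Pecam1 were apart from PF. Stellate cell markers summed to 28.0 to 29.1, 25.2 to 35.2 and 26.6 to 38.3 FPKM, cholangiocyte markers to 3.27 to 4.31, 4.86 to 9.12 and 3.34 to 6.33 FPKM, and markers of leukocytes other than macrophages to 1.19 to 1.67, 1.58 to 2.53 and 1.43 to 1.58 FPKM in PF, AF and AF with MNA.

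Cytochrome b5, a small heme protein of the same membrane, can hand P450 enzymes their second electron and serves the fatty acid desaturases. Cyb5a lies at chr18:84838704-84879871 on the plus strand. It was the most abundant of the 9 genes, with 178, 194 and 201 FPKM in PF, 266, 193 and 301 FPKM in AF, and 377, 249.9 and 308 FPKM in AF with MNA. AF replicate 2 fell within the PF range, while every AF with MNA library exceeded it. The log2 FC was 0.41 in AF (adjusted p = 0.514) and 0.71 in AF with MNA (1.63-fold; unadjusted p = 0.00806, adjusted p = 0.201, limma), both against PF.

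The P450 genes that draw on this supply had a higher summed level in every alcohol-fed library than in any PF library. The summed level of families 1 to 4 (73 table rows) was 6015, 7119 and 6165 FPKM in PF, 9039, 8593 and 8830 FPKM in AF, and 9649, 8999 and 9221 FPKM in AF with MNA. The PF libraries did not overlap either alcohol-fed group, at 1.37-fold and 1.44-fold (exact permutation p = 0.1 for both, two-sided, the smallest that 3 against 3 allows). Of 49 P450 genes tested in AF against PF, 9 were higher and 2 lower at an adjusted p under 0.05, and 11 and 0 of 49 in AF with MNA against PF (limma). Cyp2a5, which oxidises coumarin and nicotine, rose from a mean of 168 to 1350 FPKM in AF (log2 FC 3.01, adjusted p = 0.00215). Cyp2e1, the ethanol-oxidising P450 and the most abundant of them, had means of 3326 and 2880 FPKM in PF and AF (log2 FC -0.21, adjusted p = 0.722), and Cyp1a2 had 317 and 619 FPKM (log2 FC 0.97, adjusted p = 0.127).

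Set against this sum, the Por level did not differ between groups beyond the spread of libraries. Per 1000 FPKM of P450 genes, Por had 11.3, 16.5 and 14.2 FPKM in PF. The AF libraries had 21.1, 20.2 and 13.7, and those of AF with MNA had 19.3, 15.2 and 14.5 on this scale. AF replicate 3 lay within the PF range and the other two AF libraries above it. The difference of means was 4.34 in AF against PF (exact permutation p = 0.3, n = 3), 2.31 in AF with MNA against PF (exact p = 0.4, n = 3) and -2.03 in AF with MNA against AF (exact p = 0.5, n = 3). With each library left out in turn, the first difference was 2.94 to 6.68, highest without AF replicate 3. The second was 0.801 to 3.53, low without AF with MNA replicate 1 (0.801) or PF replicate 1 (0.965) and highest without PF replicate 2. The third was -4.37 without AF replicate 3, -3.54 without AF with MNA replicate 1, -1.11 without AF with MNA replicate 3, -1.10 without AF replicate 2 and -0.632 without AF replicate 1. The sizes of these differences thus rest on single libraries. Cyb5a stood at 29.8 ± 2.65, 28.7 ± 5.87 and 33.4 ± 5.65 FPKM per 1000 FPKM of P450 genes in PF, AF and AF with MNA (SD, n = 3), and its libraries overlapped in each comparison.

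Alas1 per 1000 FPKM of P450 genes was 12.8, 5.50 and 12.5 in PF. On the same scale the AF libraries had 7.29, 6.31 and 4.43, and those of AF with MNA 5.30, 7.23 and 10.5. PF replicate 2, at 5.50, lay among the AF libraries, and the other two PF libraries lay above them. The mean in AF differed from that in PF by -4.25 (exact permutation p = 0.3, n = 3), and AF with MNA differed from PF by -2.58 (exact p = 0.3, n = 3) and from AF by 1.67 (exact p = 0.5, n = 3). With each library left out in turn, the AF difference from PF was -6.63 (without PF replicate 2) to -2.98. That of AF with MNA from PF was -4.96 without PF replicate 2, -4.0 without AF with MNA replicate 3, -1.47 without PF replicate 3, -1.39 without AF with MNA replicate 1 and -1.31 without PF replicate 1. The difference between the alcohol-fed groups was 2.86 without AF with MNA replicate 1, 0.881 without AF replicate 3 and 0.251 without AF with MNA replicate 3. Taking P450 family 2 alone as the reference turned the sign of none of these 6 differences of Por and Alas1.

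**Figure D3:**
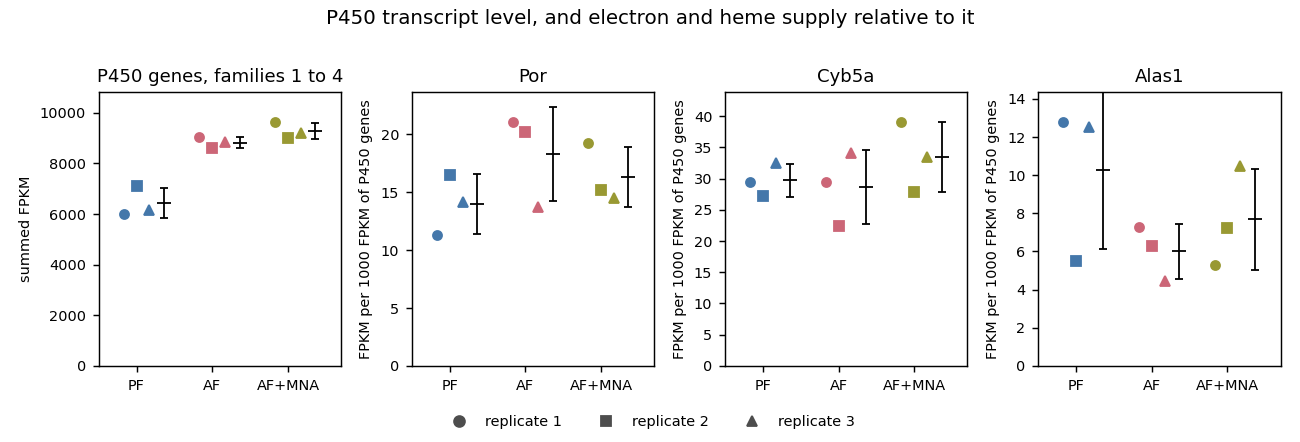
Summed FPKM of P450 genes of families 1 to 4 (left), and Por, Cyb5a and Alas1 as FPKM per 1000 FPKM of those genes, in each library of PF, AF and AF with MNA (points), with group mean and SD (black bars, n = 3). The P450 sum separates PF (6015 to 7119 FPKM) from the 6 alcohol-fed libraries (8593 to 9649 FPKM), whereas the 3 ratios overlap between groups.

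Alas1, which encodes the housekeeping 5-aminolevulinate synthase of liver, lies at chr9:106233455-106248654 on the minus strand. It had 77.0, 39.2 and 77.0 FPKM in PF, 65.9, 54.25 and 39.15 FPKM in AF, and 51.1, 65.1 and 97.0 FPKM in AF with MNA. The range within each group was wider than any difference between group means. The log2 FC was -0.28 in AF against PF (interval of the fitted difference -1.01 to 0.53, limma adjusted p = 0.816), 0.14 in AF with MNA against PF (-0.69 to 1.00) and 0.42 in AF with MNA against AF (-0.30 to 1.09). Leaving out PF replicate 2 or AF with MNA replicate 3 turned the sign of the small difference between AF with MNA and PF, to -0.12 and -0.15.

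NRF1, a transcription factor of nuclear genes for mitochondrial proteins, is known to act on Alas1, and the core of its palindrome lies before the second of the RefSeq starts of the gene. The 30 bases around it (GRCm38.p6, minus strand, chr9:106247906-106247935) are shown with the core in capitals, which begins 193 bases before that start and lies within exons of other annotated transcripts.
Alas1: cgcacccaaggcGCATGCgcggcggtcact

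Alad encodes the cytosolic enzyme that joins the precursor into porphobilinogen. It lies at chr4:62509169-62519918 on the minus strand. The level was 12.5, 9.88 and 9.67 FPKM in PF, 8.12, 5.76 and 8.61 FPKM in AF, and 8.10, 8.38 and 6.81 FPKM in AF with MNA. Every alcohol-fed library was below every PF library, with the narrowest gap, from 9.67 to 8.61 FPKM, in AF. The log2 FC was -0.51 in AF (0.703-fold; fitted difference -0.47 ± 0.18 SE, unadjusted p = 0.0392, adjusted p = 0.399, limma) and -0.46 in AF with MNA (0.728-fold, adjusted p = 0.276), and over all alternatives it stayed between -0.62 and -0.35 in AF against PF.

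The 250 bases before the upstream RefSeq start of Alad (GRCm38.p6, minus strand, chr4:62520064-62520313) are shown because Alad was the one synthesis gene among the 9 that lay apart from PF in both alcohol-fed groups. Capitals mark an E-box 105 bases and GC boxes 56 and 44 bases before the start. This start lies outside the gene coordinates given above. The window of the other RefSeq start, which lies inside them, holds an E-box 28 bases before that start, and GC boxes. Urod also held an E-box, 49 bases before its start, without a separation of its libraries from PF.
Alad: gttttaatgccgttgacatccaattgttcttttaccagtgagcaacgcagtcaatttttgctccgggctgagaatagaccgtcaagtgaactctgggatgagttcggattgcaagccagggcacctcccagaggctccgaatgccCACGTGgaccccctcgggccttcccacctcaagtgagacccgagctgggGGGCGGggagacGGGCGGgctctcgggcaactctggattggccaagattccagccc

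Urod, the decarboxylase of the middle of the chain (chr4:116989965-116994413, minus strand), was the steadiest of the synthesis genes. It had 11.98, 15.1 and 14.5 FPKM in PF, 13.4, 13.1 and 12.9 FPKM in AF, and 14.6, 16.5 and 14.4 FPKM in AF with MNA. AF with MNA was above AF in every library by a log2 FC of 0.21 (unadjusted p = 0.142, adjusted p = 0.965, limma). Against PF the log2 FC was -0.08 in AF and 0.13 in AF with MNA.

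Cpox acts in the space between the mitochondrial membranes (chr16:58670292-58717636, plus strand). It had 27.9, 30.3 and 18.2 FPKM in PF, 15.6, 22.8 and 22.6 FPKM in AF, and 24.3, 26.9 and 35.3 FPKM in AF with MNA. AF with MNA again lay above AF without overlap, with a log2 FC of 0.50 (1.42-fold; unadjusted p = 0.0570, adjusted p = 0.940, limma), while PF, from 18.2 to 30.3 FPKM, overlapped both. Against PF the log2 FC was -0.33 in AF (adjusted p = 0.678) and 0.18 in AF with MNA (adjusted p = 0.771).

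Ppox, which oxidises the ring before iron is inserted (chr1:171275990-171281186, minus strand), was the lowest of the 9. It had 3.28, 2.68 and 3.32 FPKM in PF, 3.35, 2.08 and 3.77 FPKM in AF, and 2.43, 1.9 and 2.75 FPKM in AF with MNA. The log2 FC was -0.01 in AF against PF, with a fitted interval of -0.49 to 0.43, and its sign turned when libraries were scaled to one median (0.01). In AF with MNA against PF it was -0.39 (adjusted p = 0.395, limma).

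Fech, the last enzyme of the chain (chr18:64452914-64490251, minus strand), had 6.87, 8.96 and 8.38 FPKM in PF, 7.56, 6.74 and 7.13 FPKM in AF, and 5.50, 8.29 and 6.98 FPKM in AF with MNA. All 3 groups overlapped, and the log2 FC against PF was -0.18 in AF and -0.22 in AF with MNA (limma adjusted p = 0.712 and 0.631).

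Hmox1, the inducible heme oxygenase, lies at chr8:75093621-75100589 on the plus strand. It had 6.51, 6.48 and 4.80 FPKM in PF, 15.8, 159.9 and 10.5 FPKM in AF, and 19.8, 18.1 and 8.46 FPKM in AF with MNA. All 6 alcohol-fed libraries were above PF, and AF replicate 2 was far above the other five. The group mean of AF therefore rests on 1 library: the log2 FC against PF was 3.39 with it (unadjusted p = 0.0549, adjusted p = 0.441, limma) and 1.15 without it (unadjusted p = 0.00515, adjusted p = 0.214), where Hmox1 passed the methods' threshold. In AF with MNA against PF the log2 FC was 1.38 (2.61-fold; fitted difference 1.18 ± 0.32 SE, unadjusted p = 0.00941, adjusted p = 0.218), past the methods' threshold. Between AF with MNA and AF it was -2.01 with AF replicate 2 and 0.23 without it, so these libraries give no direction for MNA.

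The constitutive isoform Hmox2 had 9.30 to 11.2 FPKM in PF, 11.6 to 14.2 FPKM in AF and 8.61 to 11.1 FPKM in AF with MNA. The ratio of Hmox1 to Hmox2 was 0.7, 0.579 and 0.482 in PF. It came to 1.11, 13.1 and 0.901 with AF, and to 1.78, 1.84 and 0.983 with AF and MNA. Hmox1 was thus below Hmox2 in every PF library and above it in 4 of the 6 alcohol-fed libraries.

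Other transcripts were high in the same library as Hmox1. The 10 Kupffer cell and macrophage markers found in the table, of 11 listed, all had a mean above 0.5 FPKM. They summed to 85.8 to 127 FPKM in PF, 97.1, 170 and 84.6 FPKM in AF, and 110 to 145 FPKM in AF with MNA. The highest sum was in AF replicate 2. Singly, Adgre1, Cd5l, Timd4, C1qa and C1qb were highest in that library, while Clec4f, Vsig4, Csf1r, Marco and C1qc were not. In the other AF libraries, where Hmox1 was 15.8 and 10.5 FPKM, the marker sums were 97.1 FPKM, within the PF range, and 84.6 FPKM, just below it. In bulk liver, more cells of a type and more RNA per cell cannot be told apart. The heme and hemoglobin scavengers Hpx and Hp were also high in AF replicate 2, at 2235 and 449 FPKM, and equally in PF replicate 1, at 2133 and 487 FPKM, where Hmox1 was 6.51 FPKM. Summed erythroid globins were highest in AF replicate 2 as well, at 632 FPKM against at most 406 FPKM in the other 8 libraries. The 6 hepatocyte markers had their lowest sum there, 14890 FPKM, mostly Alb at 10882 FPKM. Alb and Ttr were lowest in that library and Tat, at 581 FPKM, was highest, while Apoa1, Serpina1a and Cps1 were neither. The part of these in the Hmox1 level was not tested.

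The genes with the pattern most like Hmox1 over the 9 libraries were Igfbp1, Gm6614 and Plk3, with a root mean square difference of 0.42, 0.71 and 0.78 between centred log2(FPKM + 1) values, over 12251 genes compared. Igfbp1, a secreted binding protein for insulin-like growth factors, was 161 FPKM in AF replicate 2 and between 7.99 and 36.6 FPKM elsewhere. For Por the nearest were Ptpn9, Lyve1 and Acox2 (0.16, 0.20 and 0.20), and for Alas1 Wsb1, Gm2058 and Smurf2 (0.19, 0.21 and 0.21).

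**Figure D4:**
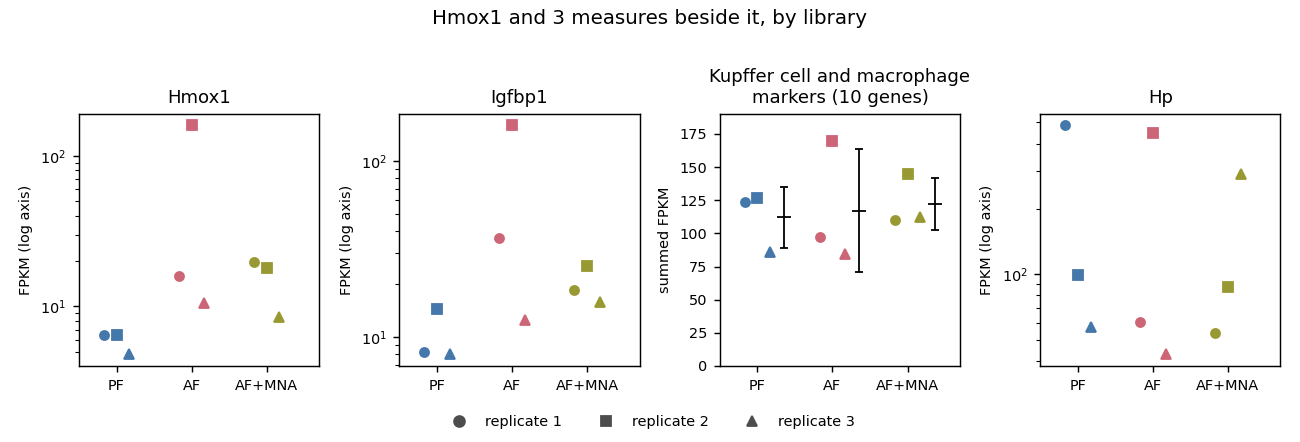
Hmox1, Igfbp1 and Hp in FPKM (log axes) and the summed FPKM of the 10 Kupffer cell and macrophage markers found (linear axis from 0, with mean and SD as black bars, n = 3) in each library. AF replicate 2 is the highest library for Hmox1 (159.9 FPKM), Igfbp1 (161 FPKM) and the marker sum (170 FPKM), while Hp is as high in PF replicate 1 (487 FPKM) as in AF replicate 2 (449 FPKM).

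Among synthesis enzymes outside the 9, Alas2 stood apart. Alas2 encodes the second 5-aminolevulinate synthase, known as the erythroid isoform. It had 37.2, 43.3 and 41.4 FPKM in PF, 6.66, 18.2 and 8.71 FPKM in AF, and 7.54, 24.7 and 22.0 FPKM in AF with MNA. All 6 alcohol-fed libraries were below all 3 PF libraries. The log2 FC was -1.86 in AF (fitted difference -1.88 ± 0.33 SE, unadjusted p = 9.58e-04, adjusted p = 0.108, limma) and -1.17 in AF with MNA (adjusted p = 0.275), both past the methods' threshold. Without AF replicate 2 the log2 FC in AF was -2.40 and the adjusted p 0.0129 (limma), the one alternative of 15 under which it passed. Alas2 made up 32.6 to 52.5% of the summed FPKM of Alas1 and Alas2 in PF, 9.18 to 25.1% in AF and 12.9 to 27.5% in AF with MNA.

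Erythroid genes were low or overlapped between groups. Slc4a1, the anion exchanger of the red cell membrane, was at 0.17 FPKM or lower in every library. The summed globins were 295 to 406 FPKM in PF, 284 to 632 FPKM in AF and 278 to 395 FPKM in AF with MNA, with overlap. Uros, an enzyme of the middle of the chain, overlapped between PF and AF and passed no threshold there (log2 FC 0.13, limma adjusted p = 0.950).

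The 208 bases before the annotated first exon of Alas2 in its RefSeq window (GRCm38.p6, plus strand, chrX:150547167-150547374) are shown for comparison with the Alas1 site. Capitals mark the nuclear receptor half-site and, 86 bases before the RefSeq start, a GATA form on the opposite strand. No NRF1 core was found in the window.
Alas2: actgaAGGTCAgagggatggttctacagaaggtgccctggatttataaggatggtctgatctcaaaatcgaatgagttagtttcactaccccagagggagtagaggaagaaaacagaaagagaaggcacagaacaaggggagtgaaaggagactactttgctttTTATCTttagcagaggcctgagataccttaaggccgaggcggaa

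Of 12 measured genes of heme breakdown, transport and scavenging, 1 passed the adjusted p in AF against PF and 1 in AF with MNA against PF, both upward, and the median log2 FC of the list was 0.17 and 0.02. Slc48a1, a heme transporter of endosomal and lysosomal membranes, rose from 9.96, 9.02 and 8.17 FPKM in PF to 22.05, 24.05 and 18.7 FPKM in AF (log2 FC 1.26, adjusted p = 0.0392, limma), and had 18.6, 17.1 and 14.7 FPKM in AF with MNA (log2 FC 0.89, adjusted p = 0.0896). Blvrb, a biliverdin reductase, rose from 12.6, 10.3 and 11.7 FPKM in PF to 27.1, 25.7 and 23.1 FPKM in AF with MNA (log2 FC 1.13, adjusted p = 0.0298), and had 23.3, 18.5 and 24.5 FPKM in AF (log2 FC 0.94, adjusted p = 0.107, or 0.0374 with all 9 libraries in the fit). The call of Slc48a1 was kept in 5 of 15 alternatives and that of Blvrb in 6 of 14, and leaving out any 1 library ended both. Ugt1a1, of the family that conjugates bilirubin, had a log2 FC of 0.90 in AF (adjusted p = 0.365), in a row that also holds transcripts of 6 other Ugt1a genes.

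Of 15 measured genes of mitochondrial heme and iron supply, 0 passed the adjusted p in AF and 1 rose in AF with MNA against PF, with a median log2 FC of -0.11 and -0.04. Tmem14c, a mitochondrial membrane protein needed for porphyrin import, was 15.2, 15.6 and 17.97 FPKM in PF, 27.1, 19.1 and 32.5 FPKM in AF, and 34.6, 36.2 and 33.8 FPKM in AF with MNA (log2 FC 1.10, adjusted p = 0.0238, limma, against PF). This call was kept in 7 of 14 alternatives. Pgrmc1 and Pgrmc2, heme-binding membrane proteins, had the largest log2 FC of the list in AF together with the protease subunit Clpx. Of the list, Pgrmc2 passed the methods' threshold in AF against PF, and Tmem14c, Pgrmc1, Pgrmc2 and Clpx passed it in AF with MNA against PF. Pgrmc1 was 260, 27.4 and 26.9 FPKM in PF, 134, 335 and 234 FPKM in AF, and 333, 366 and 343 FPKM in AF with MNA (log2 FC in AF with MNA 1.73, unadjusted p = 0.0248, adjusted p = 0.284, limma). PF replicate 1 lay far above the other two PF libraries and within the AF range. Pgrmc2 was 16.0, 10.1 and 17.0 FPKM in PF, 1.27, 1.38 and 11.2 FPKM in AF, and 1.3, 1.0 and 11.05 FPKM in AF with MNA. Its log2 FC was -1.64 in AF (unadjusted p = 0.0249, adjusted p = 0.359, limma) and -1.69 in AF with MNA (unadjusted p = 0.0286, adjusted p = 0.292), with the third library of each alcohol-fed group within the PF range. Clpx had a log2 FC of 0.94 in AF (adjusted p = 0.417) and was 2.18-fold higher than PF in AF with MNA (unadjusted p = 0.00634, adjusted p = 0.188, limma).

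Of 7 measured carriers of electrons besides Por and Cyb5a, none passed the adjusted p in AF, and Fdx1 passed the methods' threshold. Fdx1, the ferredoxin that serves mitochondrial P450 enzymes, had 5.01, 4.34 and 3.81 FPKM in PF, 1.83, 1.71 and 1.95 FPKM in AF, and 2.38, 2.81 and 2.06 FPKM in AF with MNA. It was thus on the opposite side of PF from Por in all 6 alcohol-fed libraries, with a log2 FC of -1.26 in AF (adjusted p = 0.0651, limma) and -0.86 in AF with MNA (adjusted p = 0.135). Its adjusted p for AF passed with all 9 libraries in the fit (0.0203), and that for both alcohol-fed groups together against PF was 0.0185. Cyb5b, the mitochondrial cytochrome b5, ranged from 3.15 to 78.3 FPKM with wide splits within PF and AF, and Cyb5r3, its reductase, had a log2 FC of -0.32 in AF.

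Of 8 tested enzymes other than P450 that draw on POR or cytochrome b5, none passed the adjusted p in AF against PF, and 2 passed the methods' threshold, both lower. Fads2, a fatty acid desaturase, had 257, 312 and 374 FPKM in PF, against 137, 109 and 153 FPKM in AF (log2 FC -1.24, adjusted p = 0.105, limma). In AF with MNA it had 183, 193 and 184 FPKM (log2 FC -0.75, adjusted p = 0.158, limma). Its adjusted p for both alcohol-fed groups together against PF was 0.0284 (limma). Msmo1 and Sqle, of sterol synthesis, had a log2 FC of -1.58 and -1.37 in AF against PF. In AF with MNA, Msmo1 was the one gene of the list past the methods' threshold (log2 FC -2.14, unadjusted p = 0.00542, adjusted p = 0.176, limma). The median log2 FC of this list was -0.57 in AF and -0.71 in AF with MNA, beside -0.03 and -0.02 over all genes.

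Of the genes known to control Alas1 and Hmox1, 18 were tested in AF against PF and none passed the adjusted p. Maff, a small MAF protein of the family that pairs with the Hmox1 repressor BACH1 and with NRF2, passed the methods' threshold. It had 2.44, 1.66 and 2.10 FPKM in PF, 4.71, 4.76 and 4.27 FPKM in AF, and 2.75, 3.37 and 3.95 FPKM in AF with MNA (log2 FC in AF 1.15, adjusted p = 0.0831, limma). With all 9 libraries in the fit its adjusted p for AF was 0.0381, and for both alcohol-fed groups together against PF it was 0.0416. Nr1i3, the nuclear receptor CAR, was 54.1 FPKM in AF replicate 3 and 12.7 and 14.2 FPKM in the other AF libraries, beside 11.3 to 16.0 FPKM in PF. In AF with MNA it was 25.8, 47.2 and 18.3 FPKM, above PF in every library and past the methods' threshold (log2 FC 1.21, unadjusted p = 0.0202, adjusted p = 0.273, limma). Ppargc1a, a coactivator of Alas1 in fasting, had 1.63, 3.13 and 2.54 FPKM in PF, against 3.93, 6.84 and 3.16 FPKM in AF (log2 FC 0.93, adjusted p = 0.414). The other repressor and activator genes Bach1, Nfe2l2 and Keap1 overlapped between PF and AF.

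**Figure D5:**
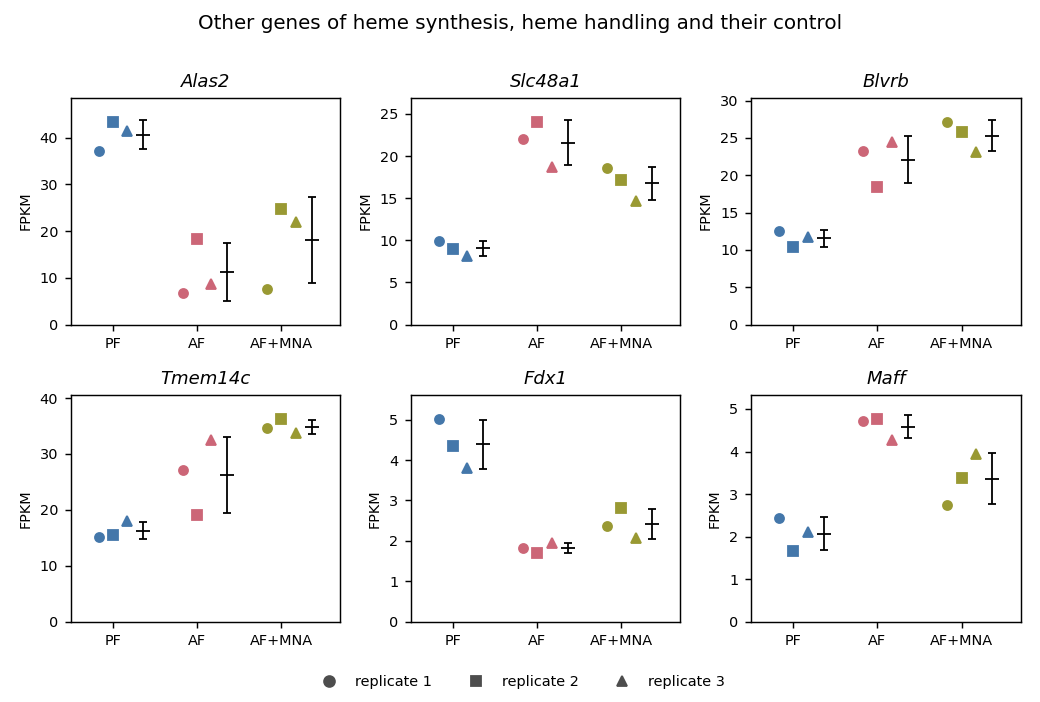
FPKM of 6 genes outside the 9 in each library (points) of PF, AF and AF with MNA, with group mean and SD (black bars, n = 3). Alas2 and Fdx1 lie below and Slc48a1, Blvrb, Tmem14c and Maff above the PF libraries in all 6 alcohol-fed libraries.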

How the data were processed

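Ribosome-depleted total RNA of mouse liver was sequenced as paired-end, strand-specific libraries. Per the labels the authors used cutadapt 1.9, FastQC, HISAT2, TopHat, StringTie 1.3.4 and edgeR; no build or strand setting is given in the sources used here. Of 7879 known lncRNA transcripts in the deposited files, 7841 are in GENCODE M21 (GRCm38) and 7708 have the same coordinates there. The authors deposited FPKM per gene and per lncRNA transcript, and for circRNAs the junction counts and a normalized signal; 9 coverage columns were not used. FPKM are not counts. The ratio of circRNA count to signal in the deposited table implies 57800660 to 82179248 reads per library, if it was scaled per base at a read length of 150, and 1588 to 2545 junction counts per library.

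Gene rows that had a known transcript, a gene name and an average of 0.5 FPKM or more across 6 libraries were fitted with limma 3.58.1 (R 4.3.3) on log2(FPKM + 1) with an intensity trend, PF, AF and AF with MNA taken 2 groups at a time, and p-values were adjusted by Benjamini-Hochberg over all genes tested. All 9 members passed this filter in each comparison. Log2 FC is the ratio of group mean FPKM; the fitted difference is on the log2(FPKM + 1) scale and understates changes of low genes. Calls were an adjusted p under 0.05 and, after the methods, an unadjusted p under 0.05 with log2 FC above 1 or below -1. Sums and ratios were compared by exact two-sided permutation tests (scipy 1.17.1), whose smallest p with 3 against 3 is 0.1. The fit was tested on simulated data.

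The 9 members and the gene lists were chosen with earlier results of these data known. Named beside the members were, of each list, genes with an adjusted p under 0.05, the 3 with the largest log2 FC in AF against PF, the 3 most abundant P450 genes, and the 3 genes nearest in pattern to Alas1, Hmox1 and Por. Hmox2, Hpx, Hp, Bach1, Nfe2l2 and Keap1 were named after their values had been seen. Genes that share an entry with another gene were kept where the entry holds the named gene, and 1 Cmah row that holds only transcripts of another gene was left out. Same-numbered libraries of different groups did not deviate together (correlations from -0.08 to 0.06). Promoter sequences are RefSeq's (GRCm38.p6). Alternatives were another pseudocount, other filters, scaling, no trend, all 9 libraries in one fit, a replicate block, each library left out, rows of one name summed, and both alcohol-fed groups together; the last pair was added after seeing the data. Some genes of the lists are not reported here.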

Additional observations from a re-analysis of the deposited data

Results flagged for a closer look

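Of 4 lncRNA transcripts overlapping Por in the deposited table, 2 were higher in every AF library than in any PF library. Of the 23512 lncRNA transcripts of the table above 0 in at least 1 PF or AF library, 718 (3.05%) were higher in this way. The lncRNA transcript ENSMUST00000198157 of Gm43091, on the strand opposite to Por at chr5:135653810-135672987, had 0.165, 0.399 and 0.105 FPKM in PF, 1.77, 2.01 and 0.495 FPKM in AF (mean 1.43) and 0.786, 0.0498 and 0.461 FPKM in AF with MNA. The assembled transcript MSTRG.34307.1, a single exon in a Por intron on the strand opposite to Por (chr5:135674074-135674447), was listed at 0, 0 and 0.262 FPKM in PF, 1.73, 1.501 and 1.80 FPKM in AF (mean 1.68) and 1.96, 0.688 and 0 FPKM in AF with MNA. Neither was tested. The other two, MSTRG.34308.1 and MSTRG.34309.1, on the Por strand, overlapped between PF and AF, with means of 1.76 and 2.10 FPKM for the former and 2.19 and 1.78 FPKM for the latter. The strand setting of the quantification is not given in the sources used here, so reads of Por and of these transcripts may not be separated.

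A circRNA from 1 exon of Por (chr5:135715872-135716063) had 3 junction reads over the AF libraries (0, 1 and 2), 2 over AF with MNA (0, 1 and 1) and 0 in PF, a count that allows up to 3 reads per library by counting error alone. A second circRNA of Por (chr5:135732483-135732804) had 1 junction read, in PF replicate 1. These counts do not show a difference.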

How the results depend on the processing

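No member passed the adjusted p of 0.05 under any alternative, and 374 of 387 recomputed member log2 FC values kept their sign. Those that reversed were small or rested on 1 library. In AF against PF, Urod became 0.03 with both alcohol-fed groups together, and Ppox 0.01 with libraries scaled to one median; with 1 library left out Ppox ranged from -0.19 to 0.20, above 0 without PF replicate 1, PF replicate 3 or AF replicate 2. With 1 library left out, values of AF with MNA against AF ranged from -0.11 to 0.16 for Alad (below 0 without AF replicate 2 or AF with MNA replicate 2), -0.20 to 0.10 for Fech (above 0 without AF with MNA replicate 1), -2.51 to 0.23 for Hmox1 (above 0 without AF replicate 2) and -0.26 to 0.05 for Por (above 0 without AF replicate 1). Those of AF with MNA against PF ranged from -0.15 to 0.33 for Alas1 (below 0 without PF replicate 2 or AF with MNA replicate 3) and -0.01 to 0.32 for Cpox (below 0 without PF replicate 3). The cause was not tested.

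Past the methods' threshold in AF against PF, 1 member (Hmox1) was counted with all 9 libraries in the fit, and leaving out 1 library gave 0 to 2 (Hmox1 without AF replicate 2, Por without PF replicate 2, both without AF replicate 3). In AF with MNA against PF the count was 0 with all 9 libraries in the fit. Genes with an adjusted p under 0.05 numbered 25, 2 and 22 in AF against PF, AF with MNA against AF and AF with MNA against PF when every entry above 0 was tested, 86 in AF against PF and 0 between the alcohol-fed groups with all 9 libraries in the fit, 2 in AF with MNA against AF with a minimum mean of 2 FPKM, 2 and 22 in the comparisons of AF with MNA against AF and against PF with rows of one name summed, and 130 in AF against PF with both alcohol-fed groups together. Leaving out 1 library gave 25 to 47, 6 to 13 and 24 to 47. Past the methods' threshold there were 1183, 675 and 1104 genes with every entry above 0, 265, 81 and 228 with a minimum mean of 2 FPKM, and 516 to 764, 211 to 367 and 467 to 545 with 1 library left out.

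With the replicate block, genes with an adjusted p under 0.05 numbered 18, 1 and 0, and 1 member (Hmox1) passed the methods' threshold in AF against PF. The libraries share only a number, so this block is not a paired design. The differences of Por and Alas1 per 1000 FPKM of P450 genes kept their sign under each alternative run. Read counts per gene are not known here, so no counting error could be given for the FPKM values.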
